A study of Mus musculus with 12 samples.

Results

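The mitochondrial carriers of the SLC25 family were examined in diaphragm and gastrocnemius muscle of Cox6a2-/- (KO) and wild-type (WT) mice. A gene belonged to the family when its symbol was Slc25a followed by a number and at least 1 probe set of the array carried that symbol alone. This gave 46 of the 19938 genes with a value, from 50 probe sets; Slc25a5 had 3 probe sets, Slc25a36 and Slc25a40 had 2 each, and the brightest was used.

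SLC25 proteins sit mostly in the inner mitochondrial membrane and exchange metabolites between cytosol and matrix. Through them ATP leaves the matrix for ADP, phosphate, fatty acids bound to carnitine, amino acids and organic acids cross, and reducing equivalents of NADH are shuttled. Muscle, which makes most of its ATP in mitochondria, is rich in the ATP/ADP and phosphate carriers. COX6A2 is the striated muscle isoform of a subunit of complex IV, the last enzyme of the respiratory chain.

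Total RNA of 12 samples was hybridised to mouse Gene 1.0 ST arrays, 3 biological replicates each for WT diaphragm, KO diaphragm, WT gastrocnemius and KO gastrocnemius. All animals are labelled male, of strain C57Bl6 and aged 10 to 12 weeks, and no treatment is given. The Cox6a2 gene was deleted in the whole body, and the methods name C57BL/6J mice from a commercial supplier, matched for age and sex, as controls without calling them littermates. Values are log2 signals, in which 1 unit is a doubling, and they are compared only between samples for the same gene. A gene is said to be higher, lower or called where the Benjamini-Hochberg adjusted p of limma's test across all genes was under 0.05. Because whole muscle was measured, fewer cells of a type and less RNA per cell cannot be told apart.

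Cox6a2 signal lay between 11.65 and 12.06 on the WT arrays and between 6.71 and 7.18 on the KO arrays, which goes with the genotype labels. The tissue label of 1 group did not go with its position markers. Hoxc10, a gene of the hindlimb position, had signals of 8.62, 8.75 and 8.68 on the arrays labelled WT diaphragm, against 4.53, 3.82 and 4.18 in KO diaphragm. None of the 10 hindlimb, 8 mesothelium or 11 glycolytic fiber genes was called between the arrays labelled WT diaphragm and WT gastrocnemius, whereas 9, 8 and 10 of them were called between the muscles of KO mice. Of all genes, 0.461% were called between the WT groups and 28.9% between the KO muscles. Over all genes, correlations of the arrays labelled WT diaphragm ranged from 0.989 to 0.992 with WT gastrocnemius and from 0.963 to 0.975 with KO diaphragm. Genotype and muscle therefore cannot be told apart in any comparison of KO diaphragm with the arrays labelled WT diaphragm. Such values are given by label only, and the comparisons KO minus WT in gastrocnemius and KO diaphragm minus KO gastrocnemius do not use these arrays except to estimate the spread.

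In gastrocnemius muscle, 1 of the 46 carriers was higher in KO than in WT mice and none was lower. The carrier was Slc25a25. Of all genes, 0.406% were called higher and 0.186% lower. The unadjusted limma p, a threshold added after the data were seen, was under 0.05 for 5 carriers with higher and 4 with lower signal. It was under 0.05 for 16.4% of all genes, 8.11% with higher and 8.34% with lower signal. The arrays of the 2 genotypes did not overlap for 10 carriers, 21.7% of the family against 23.2% of all genes. The median difference was 0.04 over the carriers and -0.01 over all genes.

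Slc25a25 encodes a carrier with calcium-binding domains that exchanges ATP-Mg for phosphate and thereby changes the size of the adenine nucleotide pool of the matrix. Its signal was 7.27, 8.75 and 7.94 on the WT gastrocnemius arrays and 9.24, 10.14 and 10.16 on the KO gastrocnemius arrays. All KO arrays were above all WT arrays, and the WT replicates differed among themselves by more than 1 log2 unit. The difference was 1.86 ± 0.33 (SE, n = 3 per group), a 3.62-fold higher signal in KO (limma, adjusted p = 0.026). An exact two-sided permutation test gave p = 0.1, the smallest value that 3 arrays against 3 can give. The call was lost without WT replicate 1 (difference 1.50, adjusted p = 0.094), WT replicate 3 (1.83, adjusted p = 0.069), KO replicate 2 (1.71, adjusted p = 0.082) or KO replicate 3 (1.70, adjusted p = 0.11). It was also lost in a limma fit of the gastrocnemius arrays alone (adjusted p = 0.057). The direction was kept in each of these fits.

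In diaphragm the comparison holds by label only. KO diaphragm arrays had Slc25a25 signals of 7.87, 7.31 and 7.89, and the arrays labelled WT diaphragm had 8.38, 9.24 and 8.82. The KO diaphragm arrays were thus below all arrays of KO gastrocnemius, by -2.16 ± 0.33 (limma, adjusted p = 0.00021), and below all arrays labelled WT diaphragm, by -1.13 ± 0.33 (adjusted p = 0.021). The second of these calls was lost without labelled WT replicate 2 (-0.91, adjusted p = 0.091), labelled WT replicate 3 (-1.12, adjusted p = 0.0546) or KO diaphragm replicate 2 (-0.94, adjusted p = 0.089). The difference of the differences, which takes the muscle labels as given, was -2.98 ± 0.47 (adjusted p = 0.00065), and leaving out any single array kept it between -3.36 and -2.62. Slc25a25 was the only carrier called in all 4 comparisons that involve a KO group.

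RefSeq lists 3 start sites of Slc25a25 (build GRCm38.p6), and the probe set does not tell them apart. The promoter window of the one that holds a full cAMP response element is printed because this is the carrier called in gastrocnemius. It covers 300 bases around the start site on the minus strand, at chr2:32424017-32424316. Capitals mark the match to TGACGTCA, whose first base is base 101 of the window, at position -150 from the start site.
Slc25a25 promoter 3: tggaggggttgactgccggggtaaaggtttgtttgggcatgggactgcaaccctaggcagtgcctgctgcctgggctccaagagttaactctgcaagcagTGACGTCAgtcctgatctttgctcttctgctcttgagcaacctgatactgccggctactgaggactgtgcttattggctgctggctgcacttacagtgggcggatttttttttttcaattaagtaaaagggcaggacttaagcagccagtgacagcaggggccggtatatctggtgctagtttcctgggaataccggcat
The letters TGACGTCA, which read the same on both strands, occurred in 588 of 32851 RefSeq promoter windows of the same length (1.79%). They occurred in 2 of the 46 windows of the 36 carriers with an entry, those of Slc25a25 and Slc25a36. The motif was chosen after the sequences were seen, and a match describes the letters only.

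The other members of the ATP-Mg class did not pass the test in gastrocnemius. Slc25a23 and Slc25a24 differed by 0.01 and 0.16, and Slc25a41 by 0.26. Between the KO muscles, Slc25a23 (0.52) and Slc25a24 (0.44) were higher in diaphragm, the direction opposite to that of Slc25a25. The class therefore did not move as 1 group.

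**Figure D1:**
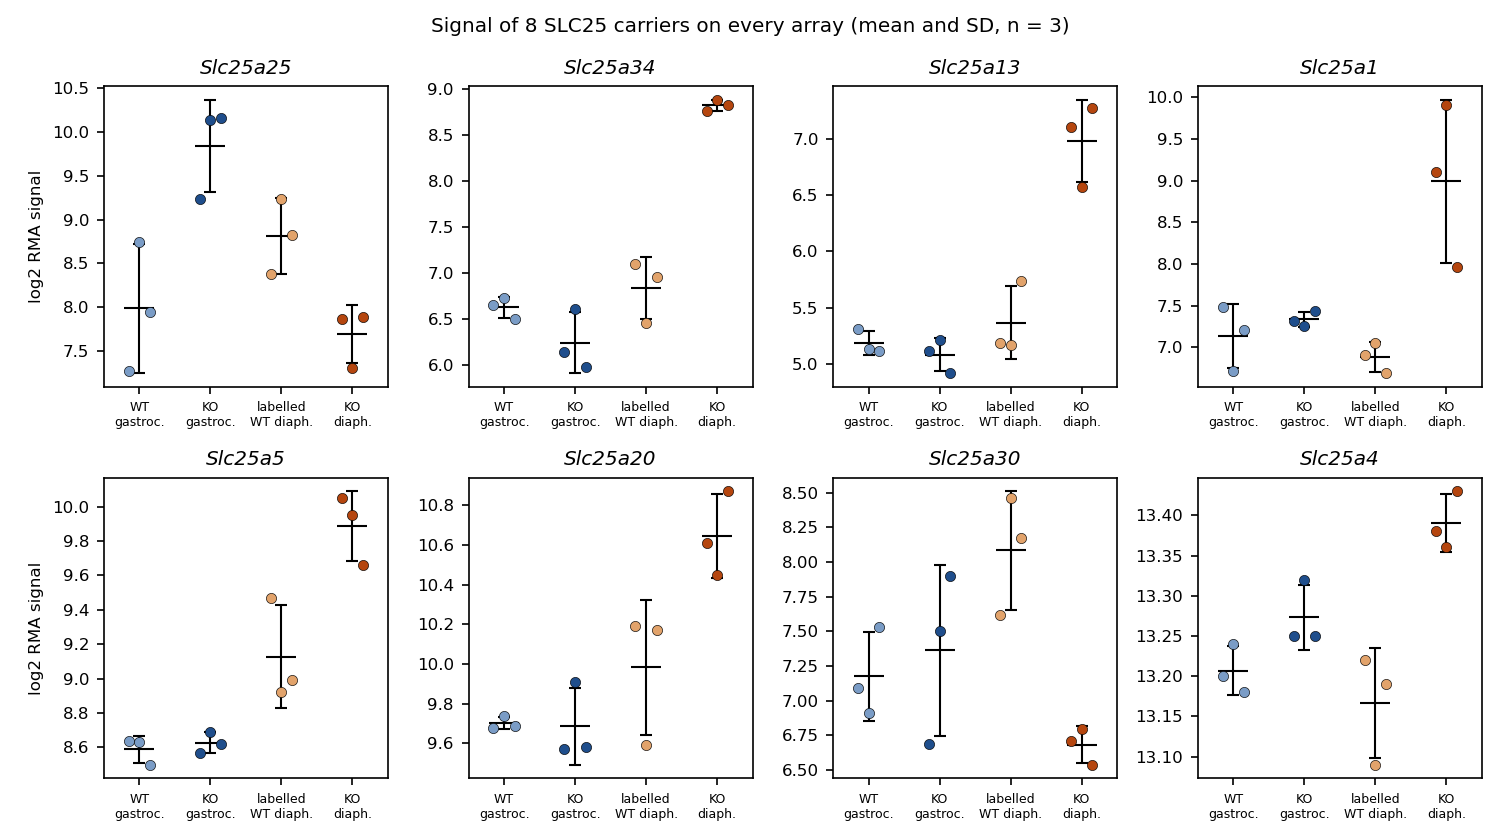
Log2 RMA signal (vertical axis, a separate scale in each panel) of 8 carriers on every array of the 4 groups; points are arrays, the horizontal mark is the mean and the bar the SD (n = 3). Slc25a25 is highest in KO gastrocnemius, whereas Slc25a34, Slc25a13, Slc25a1, Slc25a5 and Slc25a20 are highest in KO diaphragm; all 4 groups of Slc25a4 lie between 13.09 and 13.43.

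The carriers that move the bulk of ATP and phosphate in muscle differed little by genotype in gastrocnemius. Slc25a4, the ATP/ADP carrier of heart and skeletal muscle, had signals of 13.20, 13.24 and 13.18 in WT and 13.25, 13.32 and 13.25 in KO gastrocnemius. The groups did not overlap, but the difference was 0.06 ± 0.08 (95% interval -0.10 to 0.23; adjusted p = 0.72). Its signals in KO diaphragm were 13.38, 13.36 and 13.43, and on the arrays labelled WT diaphragm 13.22, 13.09 and 13.19. The KO diaphragm arrays were the highest of the 12, and neither the difference from KO gastrocnemius (0.12, adjusted p = 0.29) nor that from the labelled WT arrays (0.22, adjusted p = 0.0501) was called.

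Slc25a3 imports the phosphate used for ATP synthesis. Its signal was 10.74, 10.81 and 10.80 in WT gastrocnemius and 10.88, 11.04 and 10.83 in KO gastrocnemius. The difference of 0.14 ± 0.09 was not called (adjusted p = 0.46). KO diaphragm arrays, at 11.36, 11.16 and 11.29, were all above those of KO gastrocnemius (0.35 ± 0.09, adjusted p = 0.0082) and above the labelled WT diaphragm arrays at 10.98, 10.86 and 10.89 (0.36 ± 0.09, adjusted p = 0.0079). When every array was centred on its own median, the difference between the KO muscles was 0.22 and no longer called (adjusted p = 0.085).

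Slc25a5, the ATP/ADP carrier that most cell types express, was called between the muscles of KO mice but not between the genotypes in gastrocnemius. Its signals were 8.64, 8.63 and 8.50 in WT gastrocnemius and 8.57, 8.69 and 8.62 in KO gastrocnemius, overlapping and only 0.04 apart. KO diaphragm arrays stood at 10.05, 9.95 and 9.66 and the labelled WT diaphragm arrays at 9.47, 8.92 and 8.99. All KO diaphragm arrays were above all others, by 1.26 ± 0.14 over KO gastrocnemius (adjusted p = 9.8e-06) and by 0.76 ± 0.14 over the labelled WT arrays (adjusted p = 0.00078). The 3 probe sets of Slc25a5 gave 1.26, 1.21 and 1.08 between the KO muscles. RefSeq also lists a pseudogene of Slc25a5, whose RNA a probe set could also detect, so that the source transcript is uncertain. The isoforms were not tested against each other. Slc25a31, the ATP/ADP carrier of the germ line, was not called in any comparison.

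Between the muscles of KO mice, 14 of the 46 carriers were higher in diaphragm and 4 were lower. Of all genes, 17.7% were called higher and 11.2% lower, against 30.4% and 8.7% of the carriers. Limited to genes with a mean signal at or above the median of all genes, 13 of 33 carriers were higher and 4 lower (39.4% and 12.1%), against 27.0% and 19.4% of 9969 genes. The median difference was 0.13 over the carriers and 0.02 over all genes, and the arrays did not overlap for 52.2% of the carriers and 44.8% of all genes. Centring every array on its median moved the median difference of all genes from 0.02 to -0.11, and the carrier calls to 13 higher and 8 lower (28.3% and 17.4%), against 12.0% and 21.7% of all genes. The oxidative fiber genes, measured on the same arrays, were higher in KO diaphragm for 11 of 12, and the glycolytic fiber genes lower for 10 of 11. The mean signal of the oxidative list was 11.58 to 11.74 in KO diaphragm and 10.31 to 10.76 in KO gastrocnemius, and the part of fiber composition in the carrier differences was not tested.

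**Figure D2:**
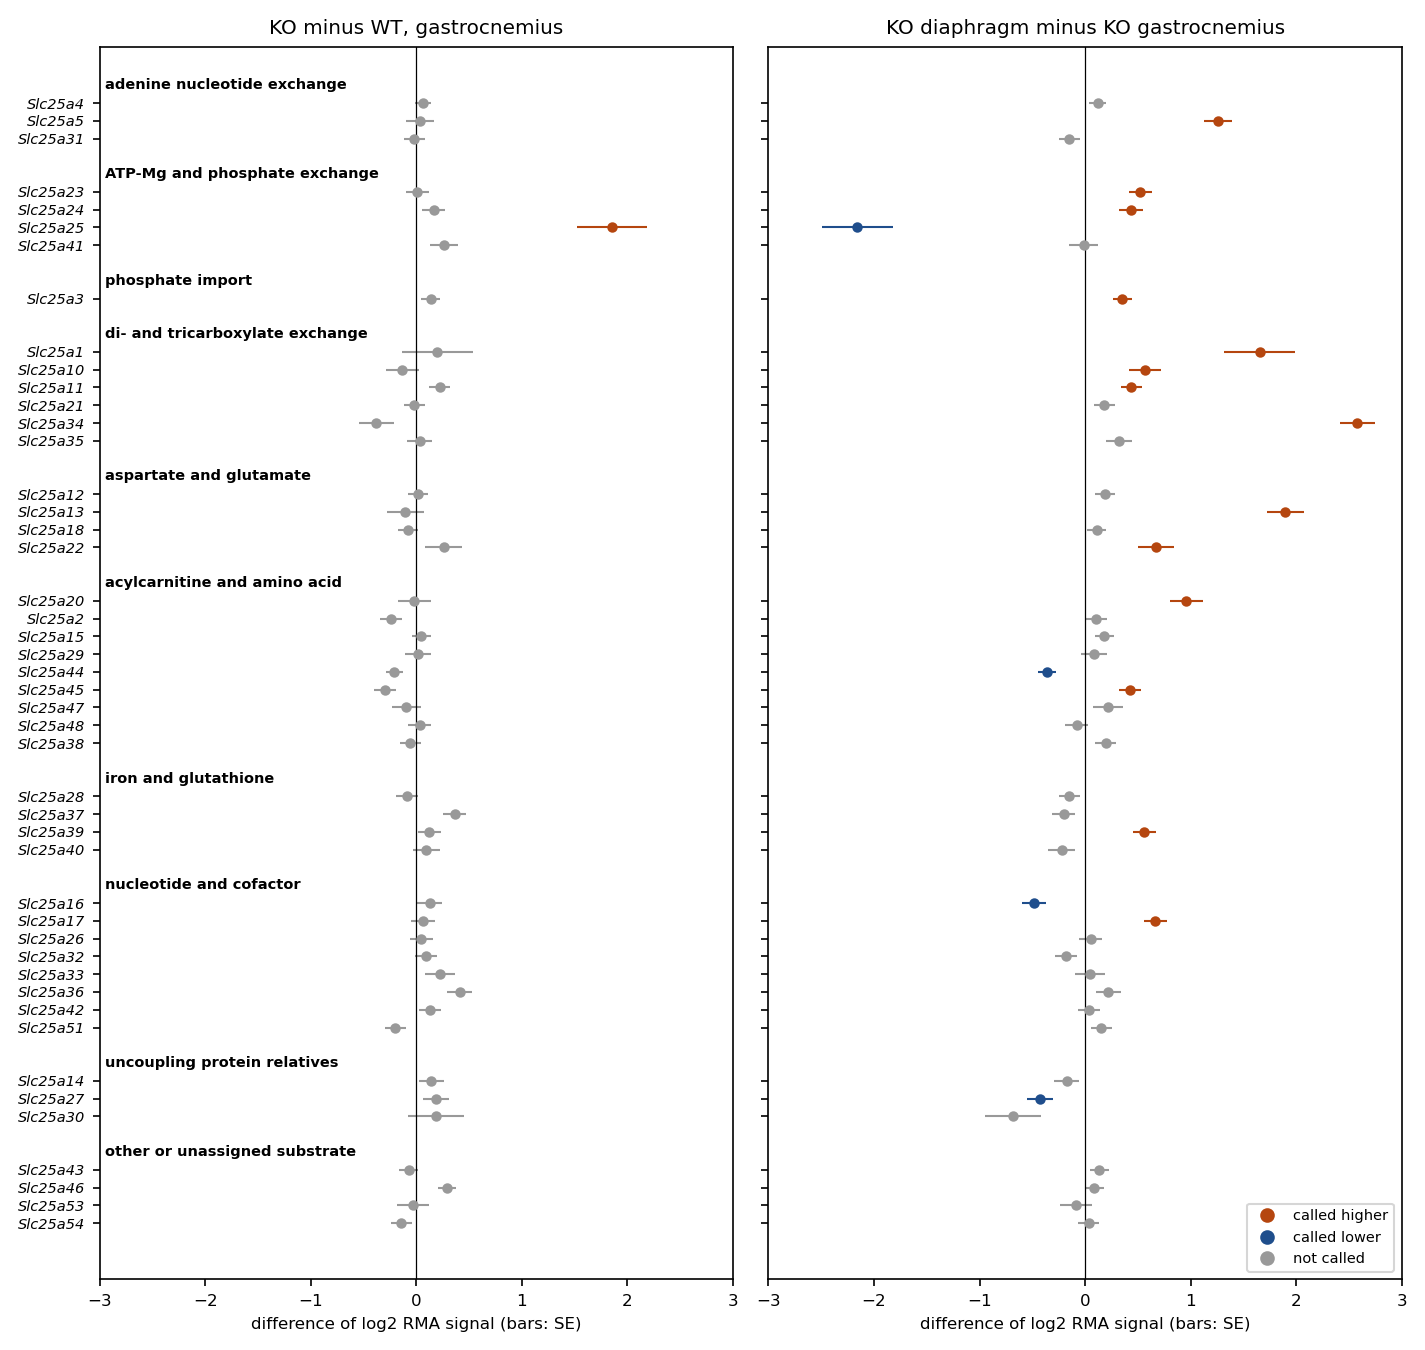
Difference of log2 RMA signal (horizontal axis) of the 46 carriers, by transport class, for KO minus WT in gastrocnemius (left) and KO diaphragm minus KO gastrocnemius (right); points are limma estimates, bars 1 SE, and colour marks the call. On the left Slc25a25 alone is called, at 1.86; on the right 14 carriers are higher and 4 lower, from -2.16 for Slc25a25 to 2.58 for Slc25a34.

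By count, the di- and tricarboxylate class held the most calls between the KO muscles, with 4 of 6 higher (66.7%) and none lower. The shares of all genes were 17.7% higher and 11.2% lower. By share called the class was not the highest. In the ATP-Mg class 2 of 4 were higher and 1 lower, and the only phosphate import carrier was higher. Slc25a34, a carrier whose substrate is not settled, had the largest difference of the family between the KO muscles. Its signals were 8.76, 8.88 and 8.82 in KO diaphragm, 6.14, 6.61 and 5.97 in KO gastrocnemius, 6.65, 6.72 and 6.50 in WT gastrocnemius, and 7.09, 6.45 and 6.95 on the arrays labelled WT diaphragm. The 3 KO diaphragm arrays stood apart from the other 9, which overlapped, and differed among themselves by an SD of 0.06. The difference was 2.58 ± 0.17 between the KO muscles, a 5.97-fold higher signal in diaphragm (adjusted p = 8.2e-08). It was 1.99 ± 0.17 over the labelled WT arrays (adjusted p = 1.1e-06). In gastrocnemius the KO mean was 0.38 lower on the log2 scale, a difference of -0.38 that was not called (adjusted p = 0.27).

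The promoter window of Slc25a34 (GRCm38.p6, minus strand, chr4:141623785-141624084) is shown because the gene had the largest difference between the KO muscles. Capitals mark TGACCTT, the reverse complement of AAGGTCA, an extended half-site of nuclear receptors. The letters do not tell 1 such receptor from another. Its first base is base 132 of the window, at position -119 from the start site.
Slc25a34 promoter: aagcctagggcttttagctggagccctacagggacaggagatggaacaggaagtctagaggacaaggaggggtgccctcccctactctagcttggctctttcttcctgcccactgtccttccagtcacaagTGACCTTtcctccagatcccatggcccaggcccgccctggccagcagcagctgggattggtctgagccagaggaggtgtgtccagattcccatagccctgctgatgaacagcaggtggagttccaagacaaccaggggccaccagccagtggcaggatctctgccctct
Searched on both strands, AAGGTCA was found in 1550 of the 32851 windows (4.72%) and in 1 of the 46 carrier windows, this one. This motif too was chosen after the sequences were seen.

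Slc25a1 exports citrate, the source of acetyl groups for fatty acid synthesis in the cytosol. KO diaphragm arrays had signals of 9.10, 9.91 and 7.96, against 7.31, 7.26 and 7.43 in KO gastrocnemius, 7.48, 6.72 and 7.21 in WT gastrocnemius and 6.91, 7.05 and 6.69 on the labelled WT diaphragm arrays. All KO diaphragm arrays were the highest, but they spread over almost 2 log2 units. The difference between the KO muscles was 1.65 ± 0.34 (adjusted p = 0.0019), and without KO diaphragm replicate 2 it was 1.19 (adjusted p = 0.0056). The call was kept under 21 of 22 alternatives. It was lost by the test of the methods after Benjamini-Hochberg adjustment. An exact two-sided permutation test gave p = 0.1, the smallest value possible with 3 arrays against 3.

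The spread of Slc25a1 had the same order as the list means of fat cell and macrophage markers. The mean signal of 7 white adipocyte genes was 7.53, 8.45 and 6.87 on the KO diaphragm arrays, 6.24 to 6.60 in KO gastrocnemius, 6.64 to 7.24 in WT gastrocnemius and 6.25 to 6.45 on the labelled WT diaphragm arrays. WT gastrocnemius thus overlapped with KO diaphragm. Of these 7 genes, 6 were higher in diaphragm than in gastrocnemius of KO mice, against 17.7% of all genes. Slc25a10, the dicarboxylate carrier, known for its high level in white fat, was 7.45, 7.92 and 7.11 on the same KO diaphragm arrays and was singled out after its values were seen. The mean signal of 7 macrophage genes was 7.80, 8.12 and 7.64 on these arrays and 6.49 to 6.78 in KO gastrocnemius, and all 7 were called higher. For Slc25a1, Slc25a10 and both list means replicate 2 was highest and replicate 3 lowest. Single macrophage genes differed in order on the KO diaphragm arrays. Adgre1 was 8.14, 7.96 and 7.10, Aif1 4.88, 5.46 and 5.57, and Csf1r 8.26, 8.57 and 8.17. The part of fat cells or macrophages in the differences between the KO muscles was not tested. Slc25a34 and Slc25a13 did not have the order of the list means. Mesothelium markers were also high in KO diaphragm, with a list mean of 7.54 to 8.36 against 4.91 to 4.92 in KO gastrocnemius.

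**Figure D3:**
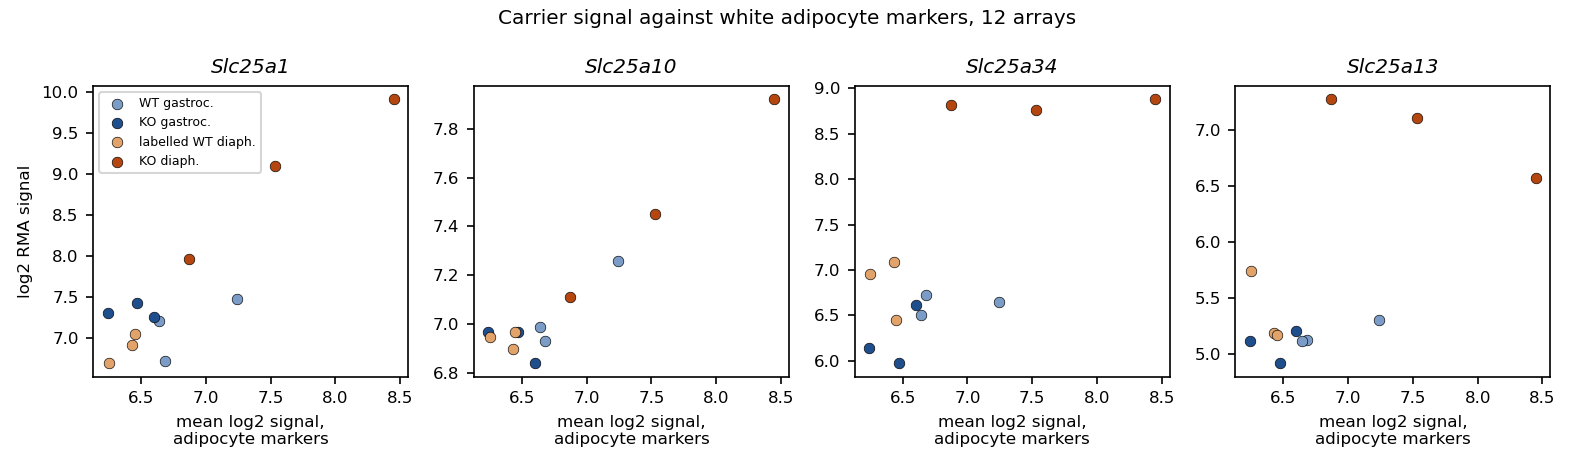
Log2 RMA signal of 4 carriers (vertical axes) against the mean log2 signal of 7 white adipocyte markers (horizontal axis) on the 12 arrays, coloured by group. Among the 3 KO diaphragm arrays Slc25a1 and Slc25a10 are highest where the markers reach 8.45 and lowest where they are at 6.87, whereas Slc25a34 stays between 8.76 and 8.88 and Slc25a13 is lowest at the highest marker level.

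Slc25a10 differed by 0.57 between the KO muscles (adjusted p = 0.013), a call lost without KO diaphragm replicate 2 (0.35, adjusted p = 0.057) or KO gastrocnemius replicate 2 (0.52, adjusted p = 0.0501). Slc25a11, which exchanges oxoglutarate for malate in the malate-aspartate shuttle, was 0.44 higher in KO diaphragm (adjusted p = 0.0045). Slc25a35, the closest relative of Slc25a34, differed by 0.32 and did not pass (adjusted p = 0.056). In gastrocnemius none of the 6 was called between genotypes.

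Of the aspartate and glutamate carriers, 2 of 4 were higher in diaphragm than in gastrocnemius of KO mice. Slc25a13 encodes citrin, the aspartate/glutamate carrier best known from liver. Its signals were 7.10, 6.57 and 7.27 in KO diaphragm, 5.12, 5.21 and 4.92 in KO gastrocnemius, 5.31, 5.13 and 5.12 in WT gastrocnemius, and 5.19, 5.17 and 5.74 on the arrays labelled WT diaphragm. All KO diaphragm arrays were above the other 9, and the other 9 lay below 6.11, the median signal of all genes. The difference was 1.90 ± 0.18 between the KO muscles (adjusted p = 2.6e-06) and 1.61 ± 0.18 over the labelled WT arrays (adjusted p = 1.2e-05). Slc25a12, the aspartate/glutamate carrier of muscle and brain, was not called in any comparison. Slc25a22, a glutamate carrier, was 0.67 higher in diaphragm than in gastrocnemius of KO mice (adjusted p = 0.0089).

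Slc25a20 carries acylcarnitines into the matrix and so serves fatty acid oxidation. Its signals were 10.61, 10.45 and 10.87 in KO diaphragm and 9.57, 9.91 and 9.58 in KO gastrocnemius. Those of WT gastrocnemius were 9.68, 9.74 and 9.69, and those of the labelled WT diaphragm arrays 10.19, 9.59 and 10.17. KO diaphragm was above every other array, by 0.96 ± 0.16 over KO gastrocnemius (adjusted p = 0.00031), whereas the genotypes overlapped in gastrocnemius (-0.02, adjusted p = 0.97). Over the labelled WT arrays the difference was 0.66 ± 0.16 (adjusted p = 0.0053).

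Slc25a44, which takes branched-chain amino acids into mitochondria, went the other way. Its signals were 7.96, 7.94 and 7.85 in KO diaphragm, 8.25, 8.23 and 8.34 in KO gastrocnemius, 8.48, 8.57 and 8.40 in WT gastrocnemius and 8.36, 8.45 and 8.36 on the labelled WT diaphragm arrays. The KO diaphragm arrays were the lowest 3 of the 12. The difference was -0.36 ± 0.08 between the KO muscles (adjusted p = 0.0047) and -0.21 ± 0.08 between the genotypes in gastrocnemius, where the arrays did not overlap but the test was not passed (adjusted p = 0.24). Of the other 7 members of the class, Slc25a45 was 0.43 higher in diaphragm than in gastrocnemius of KO mice (adjusted p = 0.007), from a mean signal of 5.57 in KO gastrocnemius, below the median of all genes.

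Among the carriers related to uncoupling proteins no member was higher in KO diaphragm. Slc25a30 had signals of 6.71, 6.80 and 6.54 in KO diaphragm, 6.69, 7.50 and 7.90 in KO gastrocnemius, 7.09, 6.91 and 7.53 in WT gastrocnemius, and 7.62, 8.46 and 8.17 on the arrays labelled WT diaphragm. KO gastrocnemius overlapped with KO diaphragm, and the labelled WT diaphragm arrays were above all WT gastrocnemius arrays. The difference between the KO muscles was -0.68 ± 0.26 (adjusted p = 0.067). Against the labelled WT arrays it was -1.40 ± 0.26 (adjusted p = 0.0011), and between the WT groups it was 0.90 ± 0.26 (adjusted p = 0.16).

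Slc25a27, known mainly from brain, had signals of 6.91, 6.74 and 6.73 in KO diaphragm, 7.26, 7.06 and 7.36 in KO gastrocnemius, 6.77, 7.16 and 7.18 in WT gastrocnemius and 7.15, 7.30 and 7.10 on the labelled WT diaphragm arrays. KO diaphragm was below KO gastrocnemius without overlap. The difference of -0.43 ± 0.12 (adjusted p = 0.015) was not called without KO diaphragm replicate 2 (-0.40, adjusted p = 0.0542) or 3 (-0.40, adjusted p = 0.051), nor without KO gastrocnemius replicate 1 (-0.41, adjusted p = 0.0514) or 3 (-0.36, adjusted p = 0.07). Slc25a14, the remaining member, was not called.

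Of the 8 nucleotide and cofactor carriers, 1 was higher and 1 lower in KO diaphragm than in KO gastrocnemius. That was 12.5% in each direction, near the 17.7% of all genes called higher and 11.2% called lower. Slc25a16, linked to coenzyme A in mitochondria, had signals of 7.89, 7.63 and 7.89 in KO diaphragm and 8.34, 8.27 and 8.25 in KO gastrocnemius. It had 8.06, 8.25 and 8.18 in WT gastrocnemius and 8.17, 8.56 and 8.17 on the labelled WT diaphragm arrays. The KO diaphragm arrays were the lowest 3, at -0.49 ± 0.12 from KO gastrocnemius (adjusted p = 0.0056). Slc25a17, a carrier of the peroxisome membrane, was 0.67 higher in KO diaphragm (adjusted p = 0.00038). Slc25a36, which carries pyrimidine nucleotides, had the smallest unadjusted p in gastrocnemius after Slc25a25 (a difference of 0.41, limma adjusted p = 0.12), and its other probe set gave 0.30.

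In the iron and glutathione class, Slc25a39, needed for glutathione import, was 0.56 higher in diaphragm than in gastrocnemius of KO mice (adjusted p = 0.0014). Slc25a37, mitoferrin of red cell precursors, differed by 0.37 between the genotypes in gastrocnemius (adjusted p = 0.13) and was not called elsewhere. None of the 4 carriers with other or unassigned substrates was called between the KO muscles, against 28.9% of all genes. Slc25a46, a protein of the outer membrane with a role in mitochondrial shape, differed by 0.29 in gastrocnemius (adjusted p = 0.13).

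By label, KO minus WT in diaphragm gave 15 carriers higher and 5 lower, or 32.6% and 10.9%, against 16.3% and 11.2% of all genes. The arrays did not overlap for 60.9% of the carriers and 43.1% of all genes. After centring every array on its median the split was 14 higher and 8 lower (30.4% and 17.4%), against 13.4% and 19.2% of all genes. This comparison shares the KO diaphragm arrays with that between the KO muscles, and 17 carriers were called in both, each in the same direction. Because of the shared arrays these calls are not independent. The share of all genes called in both comparisons was not computed, so the overlap is not a result about carriers. Slc25a30, Slc25a36 and Slc25a46 were called only by label, and Slc25a45 only between the KO muscles. Slc25a36 was 0.67 higher by label, but its other probe set gave 0.31. Slc25a46 was 0.38 higher (adjusted p = 0.0048).

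Between the groups labelled WT diaphragm and WT gastrocnemius, no carrier was called in either direction by limma, against 0.296% of all genes higher and 0.166% lower. Without adjustment of p, 8 of the 46 carriers were higher and none lower on the arrays labelled WT diaphragm. Of all genes, 8.48% were higher and 4.45% lower at that threshold. The arrays did not overlap for 15.2% of the carriers and 16.8% of all genes.

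The test of whether the KO minus WT difference was unequal in the labelled muscles called 11 carriers, 7 with a higher and 4 with a lower difference in diaphragm. Of all genes, 8.76% and 6.07% were called in these directions. After median centring 3 carriers were called higher and 5 lower (6.52% and 10.9%), against 6.14% and 11.5% of all genes, and the median of all genes moved from -0.00 to -0.13. Slc25a34 (2.37 ± 0.24), Slc25a1 (1.90 ± 0.48) and Slc25a13 (1.72 ± 0.25) had the highest values, and Slc25a25 (-2.98 ± 0.47), Slc25a30 (-1.58 ± 0.37) and Slc25a16 (-0.62 ± 0.16) the lowest. Slc25a20 (0.68, adjusted p = 0.0511) was just outside the threshold. Because this test contains the arrays labelled WT diaphragm, the values hold for the labels.

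**Figure D4:**
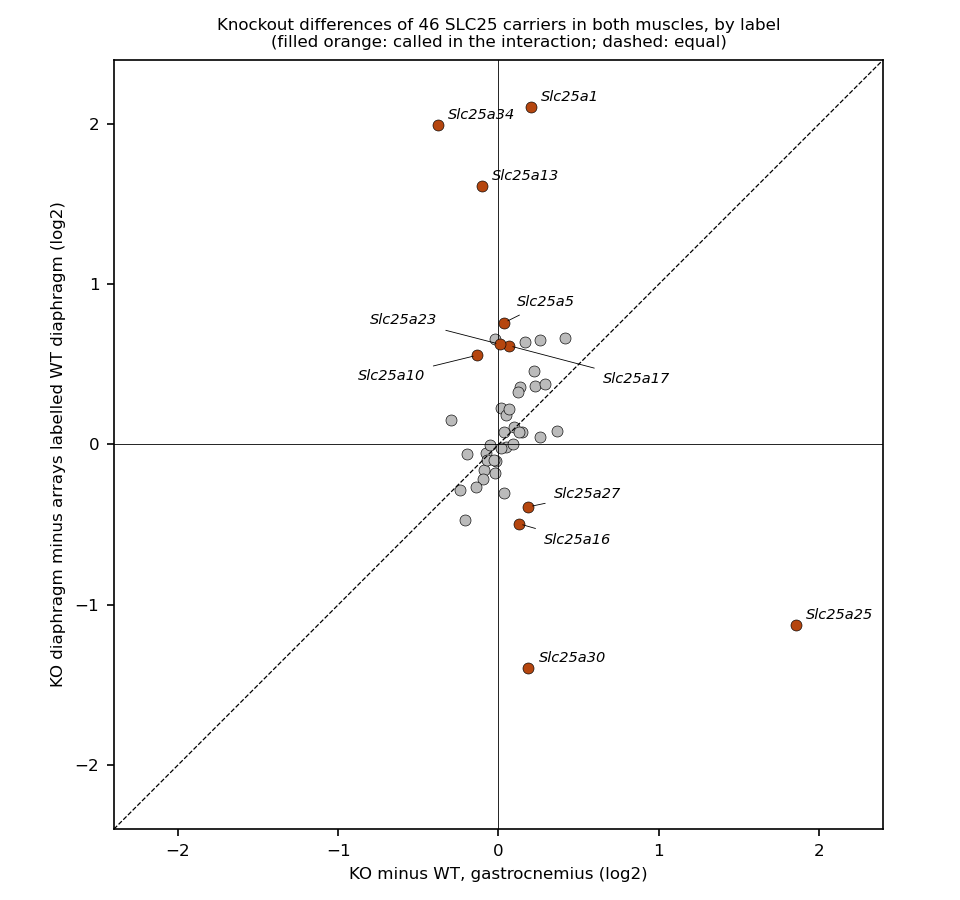
KO minus WT difference of log2 RMA signal in gastrocnemius (horizontal axis) and, by label, in diaphragm (vertical axis) for the 46 carriers; orange points were called in the test of the difference between the 2, and the dashed line marks equal differences. Most carriers lie within a narrow range on the horizontal axis, Slc25a34, Slc25a1 and Slc25a13 lie high on the vertical axis, and Slc25a25 is at 1.86 and -1.13.

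Other genes of mitochondrial transport were summarised from lists. Of 4 relatives of the family under other names, none was called in gastrocnemius. Between the KO muscles 1 was higher and 1 lower (25.0% in each direction), against 17.7% and 11.2% of all genes. Ucp2, also on the list, had no value among the genes tested. Ucp3, the uncoupling protein of skeletal muscle, had signals of 7.95, 7.41 and 8.76 in KO diaphragm, 8.79, 9.56 and 9.77 in KO gastrocnemius, 8.67, 9.48 and 8.92 in WT gastrocnemius, and 10.49, 10.22 and 10.14 on the arrays labelled WT diaphragm. KO diaphragm was below KO gastrocnemius without overlap, 1 of its arrays was above the lowest WT gastrocnemius array, and the labelled WT diaphragm arrays were highest. The difference was -1.33 between the KO muscles (adjusted p = 0.0043), 0.35 between the genotypes in gastrocnemius (adjusted p = 0.59) and, by label, -2.24 between the genotypes in diaphragm (adjusted p = 7.9e-05). Mtch1, an outer membrane relative of the carriers, was 0.90 higher in diaphragm than in gastrocnemius of KO mice (adjusted p = 5e-06).

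Of 13 other transporters of the inner membrane, 5 were higher and 2 lower in KO diaphragm than in KO gastrocnemius. That was 38.5% and 15.4%, against 17.7% and 11.2% of all genes. The median difference was 0.19 over these transporters and 0.02 over all genes. Sfxn1, a mitochondrial serine transporter, was 7.76, 8.40 and 7.36 in KO diaphragm and 6.10, 6.43 and 6.35 in KO gastrocnemius, 1.55 higher (adjusted p = 4.7e-05), with the replicate order of the adipocyte markers. Micu3, a regulator of the calcium uniporter, was lower by -1.63 (adjusted p = 2.2e-05), and Mpc1, a subunit of the pyruvate carrier, by -0.36 (adjusted p = 0.019). Micu2, another uniporter regulator, was 0.54 higher (adjusted p = 0.0032). Letm1, an inner membrane protein of cation exchange, was 0.48 higher (adjusted p = 0.00084), Slc8b1, the sodium/calcium exchanger, 0.35 (adjusted p = 0.0075) and Sfxn4 0.49 (adjusted p = 0.033).

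The 3 voltage-dependent anion channels, through which metabolites cross the outer membrane, were not called in any comparison, with a median difference of -0.12 between the KO muscles. Of 11 genes for the import of carrier proteins into the inner membrane, 2 were higher (Timm8a1, 0.90, and Tomm40, 0.31) and 2 lower (Timm29, -0.52, and Timm13, -0.49) in KO diaphragm than in KO gastrocnemius. That was 18.2% in each direction, against 17.7% of all genes higher and 11.2% lower. In gastrocnemius none of the 11 was called, although all 11 had a positive difference, with a median of 0.19 against -0.01 over all genes and an unadjusted p under 0.05 for 3. Of all genes, 46.5% had a positive difference in that muscle, and 8.11% were higher at the unadjusted threshold. No gene of the marker lists was called between the genotypes in gastrocnemius. The difference was negative for all 7 white adipocyte genes (median -0.43, unadjusted p under 0.05 for 2), all 8 mesothelium genes (median -0.13) and 6 of 7 macrophage genes (median -0.33), and for 53.5% of all genes. Their part in the carrier differences was not tested.

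Over the 5 comparisons 21 carriers were called at least once and 25 never. The share of all genes called at least once was not computed, so these counts have no background to be read against. Of all genes, 28.9% were called between the KO muscles alone and 27.6% between the genotypes in diaphragm by label. Of the 13 carriers with a mean signal below the median of all genes, Slc25a13 and Slc25a45 were called. A call missed at such low signal does not show that a carrier was unchanged.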

How the data were processed

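Total RNA from 12 muscle samples was hybridised to mouse Gene 1.0 ST arrays, 3 per group. The deposited values are log2 signals, which the authors made from the scanner files with RMA in Affymetrix Expression Console (version not given in the sources used here), that is, after background correction, normalization between arrays and summary per probe set. RMA makes arrays alike in distribution and compresses high and low signals. The lowest value was 1.65 and the highest 14.41, and no sample's column repeated another's. Arrays hold no read depth, and their number limits the precision; the median residual SD was 0.138.

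Of 35556 probe sets, 21789 carry 1 gene symbol in the platform annotation, 1621 several and 12146 are not listed; the last 2 kinds were left out. For the 999 genes with more than 1 probe set the one with the highest mean was used, giving 19938 genes. They were compared with limma 3.58.1 (lmFit and eBayes, R 4.3.3) by fitting the 4 group means together without covariates (residual degrees of freedom 8, prior 6.18), and called at a Benjamini-Hochberg adjusted p under 0.05. Groups followed the labels. Nothing says whether samples of both muscles came from the same animals. Exact permutation tests were two-sided. In simulated data for KO minus WT gastrocnemius over 19938 genes, 99 of 100 changes of 1 log2 unit and 54 of 100 of 0.5 were recovered, with 7 false calls. The simulated noise was normal and independent between genes and arrays, with limma's estimated SD of each gene, equal in all groups. Recovery may be lower on real arrays, where the spread of a gene can be wider or differ between groups.

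Every carrier could be named. Array values were given for carriers called in gastrocnemius, the 5 highest and 5 lowest called between the KO muscles (4 were lower), the 3 highest and 3 lowest of the interaction, and Slc25a4, Slc25a5, Slc25a3 and Slc25a20. Outside the family, called members of the transport lists and marker genes were named. The members and lists were chosen with earlier results of these data known. Promoter windows are RefSeq's (GRCm38.p6). Alternatives were fits of the compared groups alone, blocks for the replicate number (statmod 1.5.0), eBayes with trend and robust settings, median centring, quantile normalization, a filter on signal, the mean of probe sets, leaving out each array or the arrays labelled WT diaphragm, and the methods' t-test.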

Additional observations from a re-analysis of the deposited data

Results flagged for a closer look

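The KO minus WT difference was unequal in the labelled muscles for 11 carriers by limma's interaction test, given here as the difference in diaphragm minus that in gastrocnemius on the log2 scale. It was positive for Slc25a34 (2.37, adjusted p = 1.6e-05), Slc25a1 (1.90, adjusted p = 0.014), Slc25a13 (1.72, adjusted p = 0.00035), Slc25a5 (0.72, adjusted p = 0.02), Slc25a10 (0.69, adjusted p = 0.05), Slc25a23 (0.62, adjusted p = 0.015) and Slc25a17 (0.55, adjusted p = 0.027). It was negative for Slc25a25 (-2.98, adjusted p = 0.00065), Slc25a30 (-1.58, adjusted p = 0.0097), Slc25a16 (-0.62, adjusted p = 0.019) and Slc25a27 (-0.58, adjusted p = 0.036). Slc25a34, Slc25a13, Slc25a25 and Slc25a30 were called under all alternatives run. The call for Slc25a1 was lost with eBayes trend and robust settings (1.90, adjusted p = 0.063), and that for Slc25a23 with median centring (0.48, adjusted p = 0.056). The call for Slc25a5 was lost with median centring (0.59, adjusted p = 0.0515) and without labelled WT diaphragm replicate 3 (0.66, adjusted p = 0.053), and that for Slc25a16 without KO diaphragm replicate 2 (-0.53, adjusted p = 0.0535). The call for Slc25a17 was lost with median centring (0.42, adjusted p = 0.082) and on leaving out any of 7 single arrays (0.48 to 0.55), namely labelled WT diaphragm replicates 1 and 3, WT gastrocnemius replicate 2, KO diaphragm replicates 2 and 3 and KO gastrocnemius replicates 2 and 3. The call for Slc25a27 was lost with the replicate block (adjusted p = 0.0537) and on leaving out any of 7 (-0.59 to -0.44), namely labelled WT diaphragm replicates 1 and 2, WT gastrocnemius replicate 1, KO diaphragm replicates 2 and 3 and KO gastrocnemius replicates 1 and 3. Slc25a10 lost its call on leaving out any of 10 of the 12 arrays (0.48 to 0.72), the exceptions being WT gastrocnemius replicate 2 and KO diaphragm replicate 3. It also lost it with the fixed (adjusted p = 0.06) or random (adjusted p = 0.0546) replicate block, median centring (0.56, adjusted p = 0.083), quantile normalization (0.63, adjusted p = 0.09) and the mean of probe sets (adjusted p = 0.0502). All 11 values contain the arrays labelled WT diaphragm, whose hindlimb and mesothelium genes were at the levels of gastrocnemius, so that genotype and muscle cannot be told apart in them.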

How the results depend on the processing

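In gastrocnemius 1 carrier was higher and 0 lower in KO. The higher count was 0 in a fit of that muscle alone, 0 with eBayes trend and robust settings, and 0 by the methods' t-test after Benjamini-Hochberg adjustment; the t-test called 3 higher and 1 lower at its unadjusted threshold, and limma's unadjusted p, added after the data were seen, 5 higher and 4 lower. With 1 array left out at a time the counts ranged from 0 to 1 higher and stayed at 0 lower. In diaphragm by label (15 higher, 5 lower) they ranged from 13 to 16 and from 3 to 5, with 3 lower without labelled WT replicate 2 or KO replicate 2. Median centring gave 8 lower, and the adjusted t-test 6 higher and 1 lower. Between the KO muscles (14 and 4) they ranged from 13 to 15 and from 3 to 5; median centring gave 8 lower and the adjusted t-test 7 higher. For the interaction (7 and 4) they ranged from 5 to 7 and from 2 to 4, with 2 lower without KO diaphragm replicate 2, and median centring gave 3 higher. Between the WT groups both tests called 0 carriers after adjustment, and without it the t-test called 5 and limma 8 higher. Of 1043 values of 50 single-carrier results under the alternatives, 954 kept direction and call, 89 kept the direction and lost the call, and 0 reversed. Deviations from the group means correlated at -0.096 to 0.161 between same-numbered arrays of different groups. Between differently numbered arrays they correlated at -0.229 to 0.173. These values cannot tell whether samples of both muscles came from the same animals. With the replicate block the counts were 1 and 0 in gastrocnemius, 16 and 5 in diaphragm by label, 6 and 3 for the interaction, where the calls of Slc25a10 (0.69, adjusted p = 0.06) and Slc25a27 (-0.58, adjusted p = 0.0537) were lost, and 14 and 5 between the KO muscles. The causes of these changes were not tested. With 3 arrays per group, differences of 0.5 log2 units may be missed. Larger ones may be missed for genes with a wide spread: Slc25a30 differed by 0.90 between the WT groups and was not called.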
